A study of Rattus norvegicus with 12 samples.

Results

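The transcripts of the 3 fibrinogen chains were followed in renal cortex of male rats with and without diabetes. The probe sets were those that the array's annotation assigns to Fga, Fgb or Fgg alone. This gave 3 of 14217 genes and 6 of 31042 probe sets (controls left out), with 2 for Fga, 3 for Fgb and 1 for Fgg. The 4 groups were 20-week-old diabetic rats (20-week DM), 20-week-old nondiabetic rats (20-week ND), 10-week-old diabetic rats (10-week DM) and 10-week-old nondiabetic rats (10-week ND). Each group had 3 samples, with 1 array per sample. DM rats had been injected with 65 mg/kg of streptozocin, a toxin of pancreatic beta cells, at 14 weeks of age in the older groups and at 4 weeks in the younger ones, and ND rats with its vehicle. Pellets followed after 3 days, with insulin palmitate in DM rats and palmitate vehicle in ND rats, and cortex was taken at the end of the 6-week protocol. Blood glucose of DM rats is given as 350 to 450 mg/dl. Streptozocin and insulin went with diabetes in every DM group, so their effects cannot be told apart, and the label of 10-week DM replicate 1 names a vehicle pellet. The rats are described as male littermates with no strain named, and nothing ties an array to a rat. Errors and p-values therefore cover only how these arrays differ within a group, which may be technical.

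Fibrinogen is the soluble plasma protein that thrombin turns into the fibrin of a clot. It is a hexamer of paired Aα, Bβ and γ chains, encoded by Fga, Fgb and Fgg, and all of the chains are needed for it to be assembled in the endoplasmic reticulum and secreted. The liver is its main source, where it is an acute phase protein induced by interleukin-6 through STAT3 and C/EBP factors together with glucocorticoids. In rodents, injured kidney tubules are also known to express the fibrinogen genes.

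In the RefSeq annotation of GRCr8 the 3 genes lie next to each other on chromosome 2, in the order Fgg, Fga, Fgb, and Fgb is read from the opposite strand. Their promoters are shown because the chains are a textbook case of genes controlled together. Each window, from RefSeq with the GRCr8 build, runs from 250 bases before to 50 bases after the annotated start, 5′ to 3′ on the gene's own strand, and capitals mark every match to 4 searched motifs on either strand.
Fgg, chr2:170652833-170653132, plus strand: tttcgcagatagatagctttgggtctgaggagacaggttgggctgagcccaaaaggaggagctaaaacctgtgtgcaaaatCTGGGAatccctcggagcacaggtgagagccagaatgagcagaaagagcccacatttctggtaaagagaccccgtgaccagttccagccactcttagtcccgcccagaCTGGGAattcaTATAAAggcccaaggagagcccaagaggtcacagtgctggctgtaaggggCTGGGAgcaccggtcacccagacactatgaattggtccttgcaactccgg
Fga, chr2:170671919-170672218, plus strand: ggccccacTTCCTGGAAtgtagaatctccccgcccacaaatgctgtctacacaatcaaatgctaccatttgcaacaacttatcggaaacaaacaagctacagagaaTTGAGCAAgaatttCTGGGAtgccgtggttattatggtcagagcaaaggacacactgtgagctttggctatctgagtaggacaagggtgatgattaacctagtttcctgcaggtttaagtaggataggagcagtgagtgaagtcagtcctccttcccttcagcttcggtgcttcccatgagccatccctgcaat
Fgb, chr2:170700826-170701125, minus strand: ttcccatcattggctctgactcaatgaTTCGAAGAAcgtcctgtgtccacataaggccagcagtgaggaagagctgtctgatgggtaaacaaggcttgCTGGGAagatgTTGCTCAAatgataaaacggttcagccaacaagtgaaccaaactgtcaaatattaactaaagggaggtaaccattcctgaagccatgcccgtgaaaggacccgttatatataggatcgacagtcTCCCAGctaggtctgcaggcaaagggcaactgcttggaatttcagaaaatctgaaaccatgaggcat

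The core of the interleukin-6 response element, CTGGGA, was the only motif found in all 3 windows. It stood 3 times in Fgg (first bases at -169, -61 and 1), once in Fga (-130) and on either strand in Fgb (-152 and -17), where -1 is the base before the start. This short motif is common, with a match in 30.4% of 27457 promoter windows of this length. The Fga and Fgb windows each also held 1 match to the C/EBP site TTGCNNAA, found in 10.5% of all windows, and 1 to the STAT-type GAS element TTCNNNGAA, found in 8.68%. In Fgb the C/EBP match began at -141, just downstream of the CTGGGA core at -152, and in Fga it began at -144 on the reverse strand, just upstream of the core at -130. Neither of these motifs matched in the Fgg window, which held the TATA box TATAAA (14.3% of windows) at -50. The annotation gives Fga another start 18 bases downstream, whose window lacks the GAS match. A match here is a description of letters and not of a bound site.

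Signals are linear values as scaled by the authors, and a level of 70.9 marks the limit below which the dimmest 40% of probe sets, by geometric mean over the 12 arrays, were left out of the tests. A gene is called dim below where its geometric mean was under this limit, although single arrays could exceed it. Of the 6 fibrinogen probe sets 3 passed it, namely both of Fga and 1 of Fgb, and the Fgg probe set and 2 of Fgb did not. The mean counts the 20-week DM arrays, and without them Fgb 1370511_at would not have reached this limit. It exceeded the limit on all 3 of those arrays, against 2 of 3 in 10-week DM and 1 of 3 in each ND group. The members were chosen because earlier results of these data had shown Fga and Fgb higher in diabetes, so their diabetes differences are descriptions with no test.

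Fga, the gene of the Aα chain, gave the brightest of the 6 probe sets. Probe set 1370992_a_at read 632, 1302.5 and 1359 in 20-week DM rats, against 213, 167 and 189 in 20-week ND rats. At 10 weeks it read 384, 389 and 229 in DM rats, against 136, 201 and 205 in ND rats. Every DM array lay above every ND array, also across the ages, and the 20-week DM arrays stood far above all others. The group means were 1098 ± 404 (SD, n = 3) in 20-week DM and 190 ± 22.7 in 20-week ND rats, a log2 difference of 2.46 ± 0.30 (SE) or 5.49-fold. At 10 weeks they were 334 ± 90.9 in DM and 181 ± 39.0 in ND rats, a log2 difference of 0.87 ± 0.30. For background, every DM array exceeded every ND array of its age in 10.1% of the 18625 tested probe sets at 20 weeks, in 7.47% at 10 weeks and in 2.13% at both ages, and in 1.21% all 6 DM arrays exceeded all 6 ND arrays. These shares are given beside the counts and nothing is read from them, since the members were picked on the same contrast.

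The other Fga probe set, 1371258_at, was dimmer and moved less. It read 144, 151 and 174 in 20-week DM rats, against 67.6, 74.2 and 54.3 in 20-week ND rats, so these groups did not overlap. At 10 weeks it read 93.7, 110 and 62.4 in DM rats and 55.1, 73.5 and 101 in ND rats, and the groups overlapped. The log2 differences were 1.27 ± 0.30 at 20 weeks and 0.22 ± 0.30 at 10 weeks, smaller at each age than those of the brighter Fga probe set. The 10-week difference was 0.01 without 10-week ND replicate 1, 0.05 without 10-week DM replicate 2, 0.44 without 10-week ND replicate 3 and 0.46 without 10-week DM replicate 3. Its ND signals lay on both sides of the limit of 70.9. Which Fga transcript each probe set reads was not analysed here.

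Fgb encodes the Bβ chain. Its only probe set past the limit, 1370511_at, read 138, 622 and 694 in 20-week DM rats, against 72.2, 45.1 and 41.0 in 20-week ND rats. At 10 weeks it read 43.8, 181 and 94.5 in DM rats and 35.7, 88.4 and 37.1 in ND rats. The groups were apart at 20 weeks and overlapped at 10 weeks, where only DM replicates 2 and 3 exceeded all ND arrays. The means were 485 ± 302 (SD, n = 3) in 20-week DM and 52.8 ± 17.0 in 20-week ND rats (log2 difference 2.93 ± 0.64), and 106 ± 69.3 in 10-week DM and 53.7 ± 30.0 in 10-week ND rats (0.89 ± 0.64). Of the 6 ND arrays 2 were above the limit. Without 20-week DM replicate 1, the lowest of its group, the 20-week log2 difference was 3.68. The 10-week difference was 0.40 without 10-week DM replicate 2 and 1.42 without 10-week DM replicate 1, the array whose label names a vehicle pellet.

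**Figure D1:**
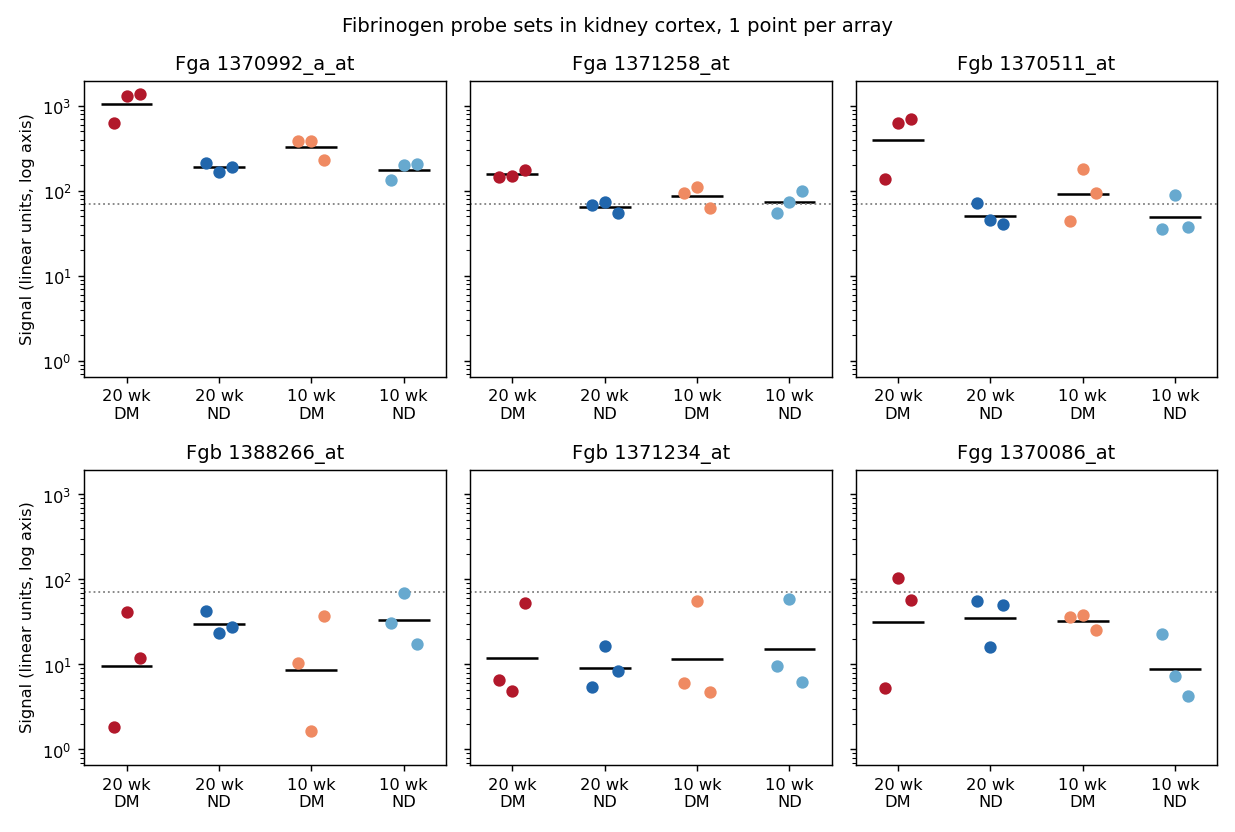
Signal of each fibrinogen probe set (log axis, linear signal units) on 3 arrays per group, ordered by replicate from left to right, with a bar at the geometric mean and a dotted line at the limit of 70.9. Both Fga probe sets and Fgb 1370511_at were highest in 20-week DM rats, while the other 2 Fgb probe sets and the Fgg probe set lay mostly under the line in all groups.

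The other 2 Fgb probe sets did not follow. Probe set 1388266_at ranged from 1.84 to 41.0 in 20-week DM, 23.3 to 42.3 in 20-week ND, 1.67 to 36.8 in 10-week DM and 17.2 to 68.8 in 10-week ND rats. Probe set 1371234_at ranged from 4.82 to 52.7, 5.50 to 16.5, 4.81 to 55.3 and 6.30 to 59.0 in the same groups. None of these 24 values reached the limit, so neither probe set measured Fgb above the dim range, and their log2 differences (-1.64 ± 1.20 and 0.39 ± 1.20 at 20 weeks, -1.94 ± 1.20 and -0.37 ± 1.20 at 10 weeks) have wide errors. All 3 Fgb probe sets had overlapping groups at 10 weeks.

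Fgg encodes the γ chain and had 1 probe set, 1370086_at. It read 5.36, 105 and 56.9 in 20-week DM rats and 55.7, 16.2 and 49.5 in 20-week ND rats. At 10 weeks it read 35.96, 38.2 and 25.6 in DM rats, against 23.1, 7.29 and 4.27 in ND rats. Only 1 of 12 values, in 20-week DM replicate 2, was above the limit. The groups overlapped at 20 weeks (log2 difference -0.16 ± 1.01) and not at 10 weeks (1.87 ± 1.01). This probe set read no rise like that of Fga at 20 weeks. Its signal is as dim as that of the 2 Fgb probe sets that did not follow, so this does not show the γ chain transcript to be unchanged. The sign at 20 weeks turned with the arrays used, from -1.02 without 20-week DM replicate 2 and -0.72 without 20-week ND replicate 2 to 0.08 without 20-week ND replicate 3, 0.17 without 20-week ND replicate 1 and 1.13 without 20-week DM replicate 1.

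**Figure D2:**
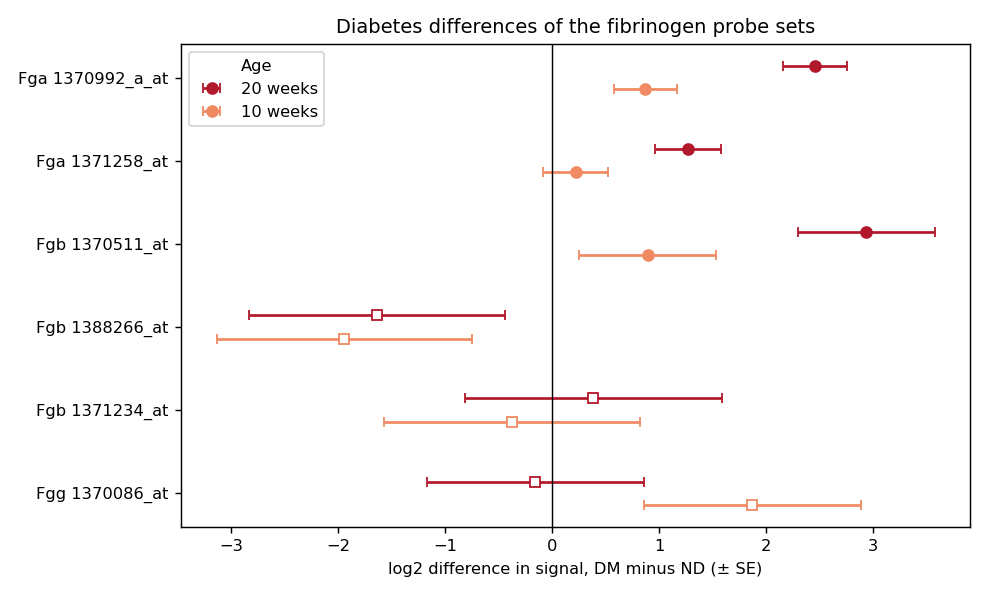
Log2 difference in signal, DM minus ND, with its SE, for each fibrinogen probe set at 20 weeks (dark) and 10 weeks (light). Filled circles are the 3 probe sets past the limit, which counts the 20-week DM arrays, all with a larger difference at 20 than at 10 weeks. Open squares are the 3 dim ones, whose errors exceed 1.0 and of which Fgg had the larger difference at 10 weeks.

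The diabetes difference was larger at 20 than at 10 weeks for all 3 probe sets past the limit. On the log2 scale this was by 1.59 ± 0.42 and 1.05 ± 0.43 for Fga and by 2.04 ± 0.90 for Fgb. That all 3 went this way is partly fixed by the filter, since the limit counts the 20-week DM arrays. For the dim probe sets the same contrast was -2.03 ± 1.43 for Fgg, and 0.31 ± 1.69 and 0.76 ± 1.69 for Fgb. These are descriptions, and no probe set of the whole table was called for this interaction in limma at an adjusted p under 0.05 (1480 had an unadjusted p under 0.05). Among DM rats alone, the log2 difference between 20 and 10 weeks was 1.68 ± 0.30 for Fga 1370992_a_at and 2.11 ± 0.64 for Fgb 1370511_at. The older DM arrays were thus above the younger DM arrays for Fga with no overlap (11.6% of tested probe sets), whereas for Fgb 20-week DM replicate 1 (138) lay under 10-week DM replicate 2 (181).

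In ND rats, a contrast that did not choose the members, no age difference was detected. The log2 differences between 20 and 10 weeks in limma were 0.09 ± 0.30 for Fga 1370992_a_at (adjusted p = 0.948), -0.19 ± 0.30 for Fga 1371258_at (adjusted p = 0.877) and 0.06 ± 0.64 for Fgb 1370511_at (adjusted p = 0.985). Fgg gave 1.98 ± 1.01 (adjusted p = 0.712, fitted over all probe sets), with 20-week replicate 2 (16.2) inside the 10-week range. The SEs leave room for age differences of some size, above all for Fgb and Fgg. For none of the 6 probe sets were the 20-week ND arrays all above or all below the 10-week ND arrays, as they were in 6.36% and 5.7% of tested probe sets. limma called 0.0% of them for age in ND rats, and 1603 had an unadjusted p under 0.05.

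Whether the chains also vary together from array to array was asked after each group's mean had been removed, which takes out the differences that chose them. Over the 12 arrays the deviations of Fga 1370992_a_at and Fgb 1370511_at had a Pearson r of 0.62 (exact permutation of arrays within groups, two-sided, p = 0.148, adjusted p = 0.291 over 3 pairs) and a Spearman rho of 0.56 (exact permutation p = 0.161, adjusted p = 0.340). The pairs with Fgg gave r = 0.53 for Fga (exact permutation p = 0.296, adjusted p = 0.296; rho 0.50, p = 0.227, adjusted p = 0.340) and r = 0.55 for Fgb (exact permutation p = 0.194, adjusted p = 0.291; rho 0.35, p = 0.360, adjusted p = 0.360). None of the 3 pairs passed the test. In each pair 1 array, 20-week DM replicate 1, was the lowest for both chains within its group. Without it r fell to 0.22 for Fga with Fgb, -0.13 for Fga with Fgg and -0.02 for Fgb with Fgg, the lowest r of each pair when 1 array was left out. The highest were 0.87 for Fga with Fgb without 10-week DM replicate 1, and 0.84 for Fga with Fgg and 0.72 for Fgb with Fgg without 10-week ND replicate 1. Without the 2 arrays farthest from the median of the first chain, of which 20-week DM replicate 1 was always one, r was 0.48, 0.06 and 0.27. The deviations of the 2 Fga probe sets, which share a gene, had r = 0.64. The dimmer of them, 1371258_at, had r = 0.22 with Fgb 1370511_at and -0.20 with Fgg, so the higher r values of Fga above are those of 1370992_a_at alone.

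**Figure D3:**
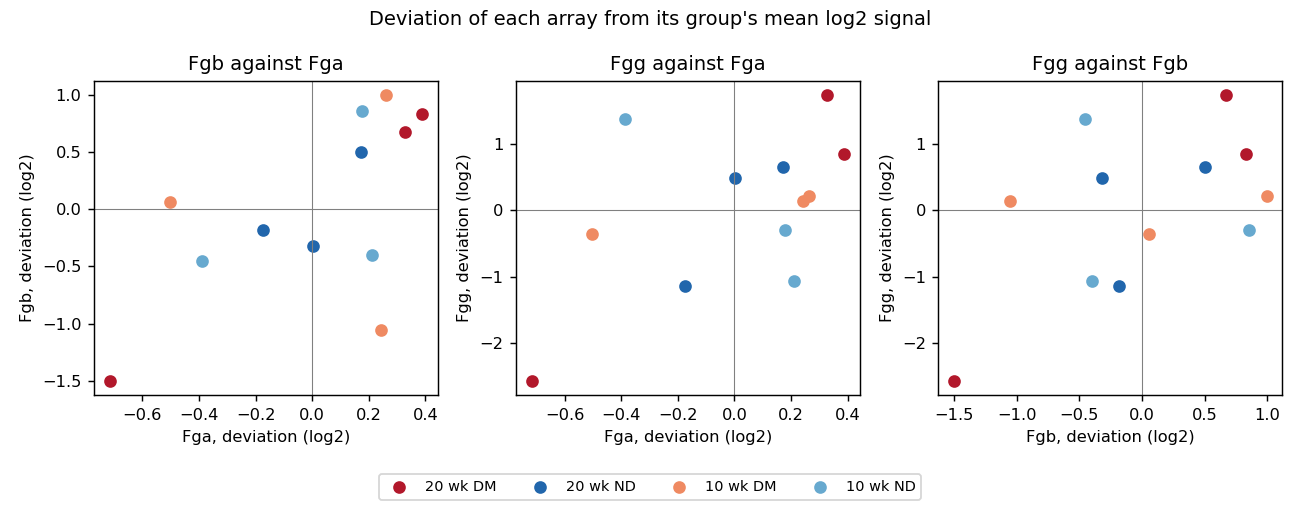
Deviation of each array's log2 signal from its group mean for pairs of chains, with 1 point per array coloured by group. The lowest point at the left of every panel is 20-week DM replicate 1.

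RNA quality and other cell types were set beside these values. For Gapdh, whose 3' probes were divided by its 5' probes as a measure of RNA integrity (higher is more degraded), the ratio was 1.60, 1.68 and 1.76 on the 20-week DM arrays, against 2.09, 1.42 and 1.54 on the 20-week ND arrays. At 10 weeks it was at most 1.495 in DM and 1.465 in ND rats. The same ratio for actin was 7.46, 11.4 and 10.0 on the 20-week DM arrays, against 11.2, 6.87 and 8.27 on the 20-week ND arrays, and 6.30 to 8.57 in 10-week DM against 6.75 to 7.47 in 10-week ND rats. In each of the 4 groups the array with the highest Gapdh ratio was also the highest for Fgb 1370511_at. In 20-week DM rats replicate 1, the lowest for Fga 1370992_a_at and Fgb, had the lowest of both ratios. With the Gapdh ratio as a covariate the 20-week log2 differences were 2.44 for Fga 1370992_a_at and 2.90 for Fgb 1370511_at. All 7 proximal tubule markers passed the limit, with summed signals between 103910 and 124710 over all arrays. Of 14 measured hepatocyte markers 7 passed, and their summed signal (all 14) was 6009 to 6283 in 20-week DM rats, against 4146 to 5221 in 20-week ND rats, and 4815 to 6417 in 10-week DM against 3844 to 4879 in 10-week ND rats. The defining liver transcripts Alb (albumin), Apoa1 and Tat were dim, at 6.44 to 71.5, 2.94 to 42.2 and 1.93 to 11.2 over the 12 arrays. Of the 7 hepatocyte markers that passed, 4 had a positive log2 difference at 20 weeks. Ambp was higher there (1.03 ± 0.25, adjusted p = 0.0480 in limma), a call lost without any of 10 single arrays (0.0505 to 0.134). Itih1 went the other way, with 86.3, 103 and 71.4 in 20-week DM against 126, 134 and 110 in 20-week ND rats. Its DM arrays also lay below the ND arrays at 10 weeks, and it was not called. Rbp4, the plasma retinol carrier, had the largest difference in signal at 20 weeks of the markers in that sum. It read 1831, 1317 and 1397 in 20-week DM against 243, 833 and 502 in 20-week ND rats (1.68 ± 1.23, adjusted p = 0.539 in limma). Apoc3 lay between 2098 and 3310 on all arrays. Apoh read 477, 372 and 448 in 20-week DM against 197, 209 and 213 in 20-week ND rats, overlapped at 10 weeks and was not called. The 20-week groups of Apoc3, Apob and Fetub overlapped. Platelet markers summed to 837 to 966 in 20-week DM and 826 to 1053 in 20-week ND rats, and leukocyte markers to 16630 to 23721 in 20-week DM and 11848 to 21239 in 20-week ND rats. The sums of 3 other marker lists did not overlap at 20 weeks. Fat markers, of which 2 of 5 passed the limit, summed to 579 to 907 in 20-week DM against 291 to 348 in 20-week ND rats, and to 474 to 656 in 10-week DM against 261 to 365 in 10-week ND rats. Of these markers only Fabp4 was apart at both ages, with 571, 445 and 229 in 20-week DM against 104, 109 and 51.8 in 20-week ND rats. Adipoq was apart at 20 weeks alone, and the dim Lep, Plin1 and Cfd overlapped at both ages. No fat marker was called. Endothelial markers summed to 7060 to 7741 in 20-week DM against 8260 to 9049 in 20-week ND rats, and podocyte markers to 4038 to 4487 against 4945 to 5427. In these bulk samples more cells with a transcript and more transcript per cell cannot be told apart, and the part of these marker sums in the fibrinogen differences was not tested.

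Plrg1, a splicing factor gene next to Fgb, gave log2 differences of 0.04 ± 0.07 at 20 weeks (adjusted p = 0.854 in limma) and -0.07 ± 0.07 at 10 weeks (adjusted p = 0.799), with signals of 1620 to 1922 on all 12 arrays. On the other side, next to Fgg, the retinol acyltransferase gene Lrat was dim, at 3.71 to 88.0, and was not tested. Farther out beyond Plrg1, Sfrp2, a secreted Wnt antagonist, fell on both of its probe sets at 20 weeks (-0.96 ± 0.21, adjusted p = 0.0335, and -1.30 ± 0.26, adjusted p = 0.0204 in limma) and over both ages (-0.69 ± 0.15, adjusted p = 0.0226, and -0.999 ± 0.183, adjusted p = 0.00824), opposite in sign to Fga and Fgb. Those calls were not refitted under the alternatives. None of the other neighbours tested, Gucy1b1, Gucy1a1, Tlr2 and Tmem131l, was called at either age or over both, with adjusted p of 0.246 or more over both ages, and Npy2r was dim.

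Among the transcription factors known to act on fibrinogen genes in hepatocytes, Cebpd (C/EBPδ, an acute phase factor) stood out. It read 435, 426 and 372 in 20-week DM rats, against 184, 153 and 139 in 20-week ND rats, and 194, 245 and 193 in 10-week DM against 177, 161 and 145 in 10-week ND rats. The groups were apart at both ages, and Cebpd rose at 20 weeks (log2 1.38 ± 0.17, adjusted p = 0.0019 in limma) and over both ages, the mean of the 2 diabetes differences (0.88 ± 0.12, adjusted p = 0.0017). The 10-week difference, 0.38 ± 0.17, did not pass (adjusted p = 0.453). The 20-week call held under all 21 alternatives in which the probe set was tested, with adjusted p between 0.00161 and 0.0109. Of the 11 regulators tested 1 was higher and 1 lower at 20 weeks, where 2.84% of all tested probe sets were called in either direction (1.22% higher, 1.62% lower), and their median log2 difference was 0.02 against -0.004 over all probe sets tested. The one that fell was Nr1h4, the bile acid receptor FXR (-0.59 ± 0.13, adjusted p = 0.0277), a call lost when any 1 of the 6 20-week arrays was left out (adjusted p 0.0521 to 0.106). Stat3 gave 0.996 ± 0.281 at 20 weeks (adjusted p = 0.0837), with 1198, 2250 and 1551 in DM against 605, 666 and 1307 in ND rats, and another Stat3 probe set 0.24 ± 0.14 (adjusted p = 0.417). Cebpb gave 0.57 ± 0.26 (adjusted p = 0.287) and Hnf4a -0.20 ± 0.08 (adjusted p = 0.241).

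Of 16 tested genes of the interleukin-6 family and STAT3 signalling 0 were called in limma at 20 weeks, at 10 weeks or over both ages (2, 0 and 1 had an unadjusted p under 0.05), beside 2.84%, 0.306% and 4.47% of all tested probe sets. The list's median at 20 weeks was -0.10. The cytokine Il6 itself was dim, at 3.52 to 58.0 on all arrays, as was Socs3, the feedback inhibitor induced by STAT3, at 9.97 to 113 over the 12 arrays. The smallest p over both ages belonged to Ptpn11, a phosphatase bound to the receptor subunit gp130 (-0.16 ± 0.06, adjusted p = 0.141), followed by Il11ra1 (-0.24 ± 0.13) and, after Stat3, the receptor Il6r (0.24 ± 0.17).

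Other acute phase proteins were mostly dim in cortex. Only 9 of 21 with a probe set passed the limit, and A2m, Hp, Orm1, Crp and Serpina3n, which the rat liver secretes with fibrinogen, were among the 12 that did not. Serpina3n still read 74.0, 262 and 233 on the 20-week DM arrays, against 44.3, 53.0 and 66.9 on the 20-week ND arrays, with replicate 1 the lowest as for Fgb, and its 10-week groups overlapped. Orm1 went the other way, with 40.3, 8.02 and 9.68 in 20-week DM against 59.0, 57.1 and 55.2 in 20-week ND rats. The 20-week groups of A2m, Hp and Crp overlapped. All 9 had a positive log2 difference at 20 weeks, with a median of 0.57 against -0.004 over all tested probe sets, but 1 passed the test there, Fn1, or fibronectin (0.73 ± 0.17, adjusted p = 0.0410 in limma). At 10 weeks 3 of 9 were positive and the median was -0.02. Over both ages Fn1 (0.55 ± 0.12, adjusted p = 0.0227) and the metallothionein Mt2A (0.46 ± 0.11, adjusted p = 0.0291) rose. The Fn1 call was lost without 10-week DM replicate 1, 10-week ND replicate 2, 20-week DM replicate 1 or 20-week DM replicate 2 (adjusted p 0.0541 to 0.0566), its 20-week call without any of 10 single arrays (0.0506 to 0.151), and the Mt2A call without any of 7 (0.0548 to 0.0728). Lcn2, a siderophore-binding protein of injured tubules, gave 1.38 ± 0.35 at 20 weeks (adjusted p = 0.0562). Its signals were 211, 582 and 645 in 20-week DM against 204, 144 and 154 in 20-week ND rats. The copper carrier Cp was read by several probe sets, of which the brightest did not pass and another rose at 20 weeks (1.42 ± 0.28, adjusted p = 0.0190 in limma). A further tested Cp probe set did not pass there (0.53 ± 0.18, adjusted p = 0.164). The pentraxin Apcs gave 0.24 ± 0.13 over both ages (adjusted p = 0.370).

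**Figure D4:**
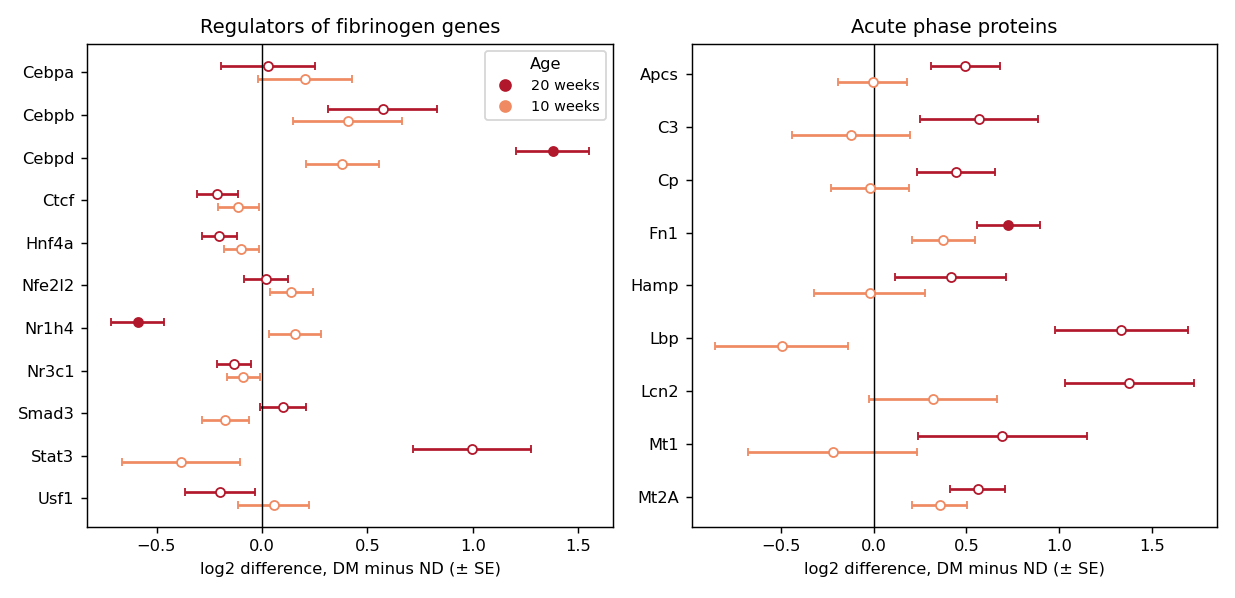
Log2 difference, DM minus ND, with its SE, at 20 weeks (dark) and 10 weeks (light) for the tested regulators of fibrinogen genes and acute phase proteins, with filled points where the adjusted p was under 0.05. Cebpd and Nr1h4 at the left and Fn1 at the right are filled, all at 20 weeks.

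Genes that make or limit the clot moved in both directions. Of 18 tested coagulation genes 1 was higher and 2 lower over both ages, where 4.47% of all tested probe sets were called (2.14% higher, 2.34% lower), and the median was 0.08. Vwf, the platelet-binding multimer of endothelial cells, fell (-1.78 ± 0.34, adjusted p = 0.0114 in limma), and this call held under all 22 alternatives. It read 176, 190 and 125 in 20-week DM against 654, 1329 and 304 in 20-week ND rats. At 10 weeks Vwf read 493, 181 and 207 in DM against 1181, 743 and 562 in ND rats. The endothelial marker sums above also lay lower in 20-week DM rats, but overlapped at 10 weeks (7441 to 8441 in DM against 7695 to 8498 in ND rats). Their part in the Vwf difference was not tested. F5, the cofactor of prothrombin activation, rose (0.93 ± 0.21, adjusted p = 0.0285 in limma), and the anticoagulant protease Proc fell (-0.50 ± 0.12, adjusted p = 0.0303). The F5 call was lost without any of 5 single arrays (adjusted p 0.0511 to 0.0687) and the Proc call without any of 8 (0.0502 to 0.0762). Prothrombin itself, F2, gave 1.48 ± 0.42 (adjusted p = 0.0695) with 1911, 945 and 662 in 20-week DM against 391, 393 and 445 in 20-week ND rats. Thrombomodulin, Thbd, gave -0.42 ± 0.11 (adjusted p = 0.0562). The thrombin receptor F2r was higher at 20 weeks (0.46 ± 0.11, adjusted p = 0.0423), a call lost without any of 11 single arrays (0.0512 to 0.139).

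Fibrin is cut by plasmin, and 3 of 8 tested fibrinolysis genes rose over both ages and none fell, beside 2.14% of all tested probe sets higher and 2.34% lower. They were the plasminogen receptor Plgrkt (0.43 ± 0.07, adjusted p = 0.0055 in limma), and S100a10 (0.43 ± 0.10, adjusted p = 0.0345) and Anxa2 (0.26 ± 0.06, adjusted p = 0.0415), the subunits of another plasminogen-binding complex. S100a10 and Anxa2 are also counted in the tubular injury list. Plgrkt read 814, 841 and 878 in 20-week DM against 691, 574 and 617 in 20-week ND rats. Its call over both ages held under all 22 alternatives, and its 20-week call was lost without any of 10 single arrays (adjusted p 0.0575 to 0.179). The calls over both ages were lost without any of 9 single arrays for S100a10 (adjusted p 0.0507 to 0.0868) and any of 11 for Anxa2 (0.0513 to 0.0998). At 20 weeks S100a10 (0.86 ± 0.15, adjusted p = 0.0095) was called under all 22. The urokinase gene Plau gave 0.20 ± 0.08 (adjusted p = 0.233). Plg, the gene of plasminogen, was dim at 9.84 to 110. Of 13 tested receptors and matrix partners of fibrinogen 2 rose over both ages, Fn1 and the integrin ligand Icam1 (0.36 ± 0.08, adjusted p = 0.0299, lost without any of 8 single arrays, 0.0549 to 0.0757). Tgm2, a tissue transglutaminase that can cross-link fibrin, fell (-1.05 ± 0.17, adjusted p = 0.0037), with 3796, 4413 and 4211 in 20-week DM against 8373, 6730 and 9900 in 20-week ND rats. It was called over both ages under all 22 alternatives, and another Tgm2 probe set fell too (-1.07 ± 0.23, adjusted p = 0.0191). The leukocyte integrin chain Itgb2 gave 0.25 ± 0.11 (adjusted p = 0.272).

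The fibrinogen-related domain at the C-terminus of the Bβ and γ chains also occurs in other secreted proteins. Of 6 tested members of that family 2 rose over both ages and none fell (all tested probe sets 2.14% higher and 2.34% lower), the lipase inhibitor Angptl4 (1.38 ± 0.23, adjusted p = 0.0050 in limma), called under all 22 alternatives, and the vascular ligand Angpt2 (0.65 ± 0.17, adjusted p = 0.0460), lost without any of 10 single arrays (0.0551 to 0.114). Angptl4 read 571, 814 and 869 in 20-week DM against 143, 129 and 318 in 20-week ND rats. The part of the fat marker sums above, higher in DM rats at both ages although only Fabp4 was apart at both, was not tested. The matrix protein Mfap4 gave 0.44 ± 0.21 (adjusted p = 0.298) and Angptl2 gave -0.32 ± 0.20 (adjusted p = 0.463). Fgl1, the liver-type fibrinogen-like protein, was dim at 6.68 to 51.7. Of 14 tested chaperones and carriers of the secretory pathway, which folds the chains into the hexamer, none rose and 2 fell over both ages, beside the same shares of all probe sets, the disulfide isomerase Pdia4 (-0.35 ± 0.07, adjusted p = 0.0141) and Hspa5, or BiP (-0.31 ± 0.08, adjusted p = 0.0383). The Pdia4 call held under all 22 alternatives, and that of Hspa5 was lost without any of 8 single arrays (0.0524 to 0.0904). Xbp1 gave -0.27 ± 0.08 (adjusted p = 0.0998) and Sec61b 0.18 ± 0.06 (adjusted p = 0.128). Of 25 tested tubular injury genes 7 rose at 20 weeks and none fell, with a median of 0.61, beside 1.22% of all tested probe sets higher and 1.62% lower. Havcr1, the tubular injury marker KIM-1, and Spp1, or osteopontin, rose over both ages (1.68 ± 0.29, adjusted p = 0.0056, and 1.15 ± 0.18, adjusted p = 0.0038 in limma) under all 22 alternatives. The 20-week calls were less firm. That of Havcr1 was lost without any of 4 single arrays (adjusted p 0.0787 to 0.112) and that of Spp1 without any of 3 (0.0758 to 0.0829). Those of S100a6, Anxa2 and Myc were lost without any of 4 (0.0885 to 0.122), any of 5 (0.0525 to 0.106) and 1 (0.052). Those of S100a10 and S100a11 were lost without none. Like Fgb, Havcr1 was lowest in replicate 1 of the 20-week DM rats, with 1001, 3097 and 3351 there against 901, 457 and 467 in 20-week ND rats.

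None of the 115 tested genes of the 9 pathway lists was called in limma at 10 weeks, where 0.306% of all tested probe sets were, and 20 had an unadjusted p under 0.05. At 20 weeks 16 of these 115 genes were called, beside 2.84% of all tested probe sets.

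The genes whose log2 signal over the 12 arrays was most like the mean of Fga 1370992_a_at and Fgb 1370511_at were Nudc (Pearson r 0.976), Pigr (0.949), Spsb1 (0.934), Slc10a2 (0.932), Aass (0.925), S100a10 (0.925), Spink1 (0.924) and Rpl19 (0.924). These are descriptions over 12 arrays that share their groups, and 1.42% of 18625 probe sets had an r above 0.8. Nudc encodes a dynein-associated chaperone and Pigr the receptor that carries IgA across epithelia. Pigr read 12444, 15009 and 18576 in 20-week DM against 6146, 4599 and 5766 in 20-week ND rats, and 6040, 13654 and 8036 in 10-week DM against 4985, 7136 and 5219 in 10-week ND rats. As with Fgb, its highest 10-week DM array was replicate 2, and its groups were apart at 20 weeks alone. Nudc averaged 3299 ± 893 in 20-week DM and 1773 ± 160 in 20-week ND rats (SD, n = 3 each). Slc10a2, the ileal-type bile acid transporter, averaged 500 ± 28.5 in 20-week DM and 215 ± 9.96 in 20-week ND rats. Spsb1 encodes an adaptor of ubiquitin ligases, Aass an enzyme of lysine breakdown, Spink1 a trypsin inhibitor and Rpl19 a ribosomal protein. After removal of the group means the r of these 8 genes with the fibrinogen pattern lay between 0.70 for Aass and 0.92 for Nudc. The r that picked these genes already holds those deviations, so high values here are partly fixed by the choice and nothing is read from them.

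**Figure D5:**
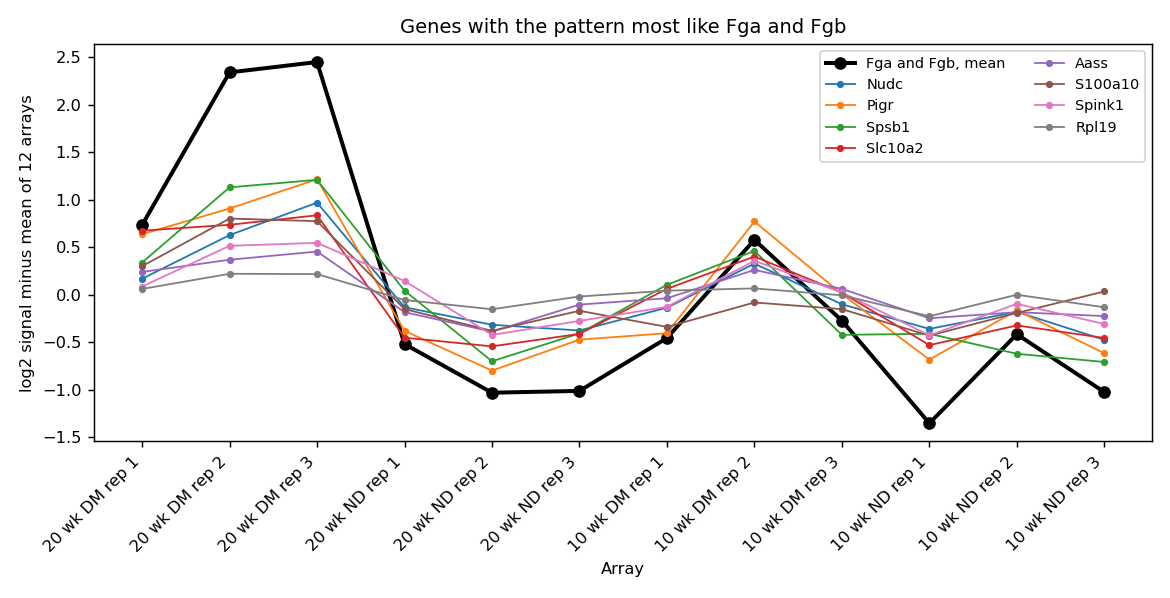
Log2 signal minus its mean over 12 arrays for the mean of Fga and Fgb (black) and the 8 genes with the highest Pearson r to it, array by array. The fibrinogen line spans the widest range, and all lines lie above 0 on the 20-week DM arrays and, except for S100a10, on 10-week DM replicate 2.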

How the data were processed

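Kidney cortex RNA of 12 samples was hybridised in 1 colour as biotin-labelled cRNA, per the labels' protocols. The deposited values are linear intensity per probe set, which the submitters' processing notes credit to GCOS. No version, way of summarising probes or present calls were found in the sources used here. The 2% trimmed mean of every array was 500.2, the mark of a global scaling by the authors, which hides any change common to most genes.

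Of 31099 probe sets 57 controls were left out. Signals under 1 (424 values) were set to 1, log2 was taken, and the dimmest 40% were left out. Each comparison was tested with limma 3.58.1 in R 4.3.3, with 4 group means on all 12 arrays (8 residual degrees of freedom), eBayes with an intensity trend, two-sided, and Benjamini-Hochberg adjustment over 18625 probe sets. Dim members were fitted over all 31042. SEs are this model's, and the number of arrays limits the precision. The fit was tested on simulated data. Symbols are those of the platform annotation, brought up to date by RefSeq gene identifier, and 20826 probe sets named 1 gene, 436 several and 9780 none here. All 3 members matched the promoter table.

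List genes were read by their brightest probe set. The text names every fibrinogen probe set, the 4 genes of a pathway list with the smallest p over both ages and those called at 1 age (for tubular injury and markers only those a result turns on), and the 8 genes most like the pattern. F2, Cp, Il6, Socs3, Plg, Fgl1, Serpina3n, Orm1, Alb, Apoa1, Apoh, Tat and the locus neighbours were added after their values were seen. The members, lists and rules were chosen with earlier results of these data known. Alternatives were other scalings, filters, offset and spread estimates, fits of 2 groups, each array left out, the replicate number as a block and the Gapdh ratio as a covariate, the last added after the data were seen. The deviations of same-numbered arrays had correlations from -0.15 to 0.15, over 0.1 in 4 of 18 pairs. Pairs with unlike numbers were not compared, so this does not decide whether the arrays are paired.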

Additional observations from a re-analysis of the deposited data

How the results depend on the processing

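The diabetes differences of the 3 fibrinogen probe sets past the limit kept their sign under every alternative that gave them a value. The stricter filter left out Fga 1371258_at and Fgb 1370511_at. Without single arrays Fga 1370992_a_at ranged from 2.26 to 2.82 at 20 weeks, 0.68 to 1.12 at 10 weeks and 1.57 to 1.84 over both ages, and Fgb 1370511_at from 2.52 to 3.68, 0.40 to 1.42 and 1.67 to 2.29. Fga 1371258_at ranged from 1.14 to 1.37, 0.01 to 0.46 and 0.64 to 0.86. The number of probe sets called, out of 18625, moved more. At 20 weeks it was 529, against 191 with no intensity trend, 331 without 2 doubted arrays (20-week ND replicate 1, with its high Gapdh ratio, and 10-week DM replicate 1, with its pellet label), 309 with the 2 groups fitted alone and 194 to 520 without single arrays. At 10 weeks it was 57, against 7, 10 and 9 under the same 3 settings and 5 (without 10-week ND replicate 2) to 115 (without 10-week ND replicate 3). Over both ages it was 833, against 502 with no trend, 490 without the doubted arrays and 525 to 823 without single arrays. For the interaction it was 0, against 3 with the Gapdh covariate and 0 to 2 without single arrays. For age in ND rats it was 0, against 1 with medians set equal and 0 to 9 without single arrays. Setting medians equal moved the median of all probe sets at 10 weeks by 0.11. The replicate numbers are shared by the groups, and whether they pair the arrays was not settled. As a replicate block they left 32 calls at 10 weeks, against 57, and an r of 0.53 for Fga with Fgb. The cause of these shifts was not tested. Signals near or under the limit leave Fgg and 2 Fgb probe sets unmeasured.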

Other observations

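On the 20-week DM arrays, replicate 1 was at or under 0.5 times both other replicates for 138 of 18625 tested probe sets (0.741%). Fgb 1370511_at, Fga 1370992_a_at, Havcr1 and Lcn2 were among them. Replicates 2 and 3 were 4.51 and 5.02 times replicate 1 for Fgb, 2.06 and 2.15 times for Fga, 3.09 and 3.35 times for Havcr1 and 2.76 and 3.06 times for Lcn2, but 1.05 and 1.21 times for Fga 1371258_at. These genes were looked at after their values were seen.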
